A study of Mus musculus with 2 samples.

Results

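The genes described here are 10 genes of lipid droplets and of triglyceride turnover, namely the coat proteins Plin2, Plin3, Plin4 and Plin5, the triglyceride synthesis enzymes Dgat1 and Dgat2, the lipases Pnpla2 and Lipe, and the lipase regulators G0s2 and Abhd5. They were chosen by symbol from the 22882 gene symbols of the expression files, and all 10 were found, each on 1 row. RNA was measured by polyA RNA-seq in the hearts of 23 day old mice on a C57BL6/J background, of mixed sex and without treatment. The control mice carried floxed Med1 alleles (Med1fl/fl). The csMed1-/- mice carried the same floxed alleles and a Cre transgene under the α-myosin heavy chain promoter, which deletes Med1, a subunit of the Mediator coactivator complex, in cardiomyocytes only, so that the other cells of the heart kept the gene. RNA from 5 hearts of each genotype was pooled and 1 library was sequenced from each pool, so there are no replicates, no test between the genotypes was made, and no error can be given for a single value. Med1 itself had 3.38 FPKM in Med1fl/fl and 0.412 FPKM in csMed1-/- heart.

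Heart muscle burns fatty acids and keeps a small store of them as triglyceride in lipid droplets. Perilipins coat the droplet and control how lipases reach it. The DGAT enzymes add the last acyl chain that makes triglyceride. ATGL, the product of Pnpla2, removes the first chain again, with the Abhd5 protein (CGI-58) as its activator and the G0s2 protein as its inhibitor, and hormone-sensitive lipase, the product of Lipe, acts on the diacylglycerol that results. Several of these genes are known targets of PPARα, a fatty acid sensing nuclear receptor for which Med1 is a coactivator.

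Expression is given in FPKM, a measure of fragments per length of transcript relative to the size of the library, which allows levels of different genes to be set side by side. A gene was counted as tested when neither library listed it at 0 and its higher value was 1 FPKM or more, which held for 10489 genes and for all 10 genes of the list. A gene was called when its FPKM differed more than 2-fold. Over all tested genes, 18.0% were called lower and 13.6% higher in csMed1-/- heart, and the median log2 ratio of csMed1-/- to Med1fl/fl was -0.07. Of the 10 genes, 5 were called lower (Plin3, Plin4, Plin5, Dgat2 and G0s2), none was called higher, and 5 stayed within 2-fold (Plin2, Dgat1, Pnpla2, Lipe and Abhd5). The median log2 ratio over the 10 genes was -0.52. The summed FPKM of the 10 genes was 1388 in Med1fl/fl and 980.2 in csMed1-/- heart.

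**Figure D1:**
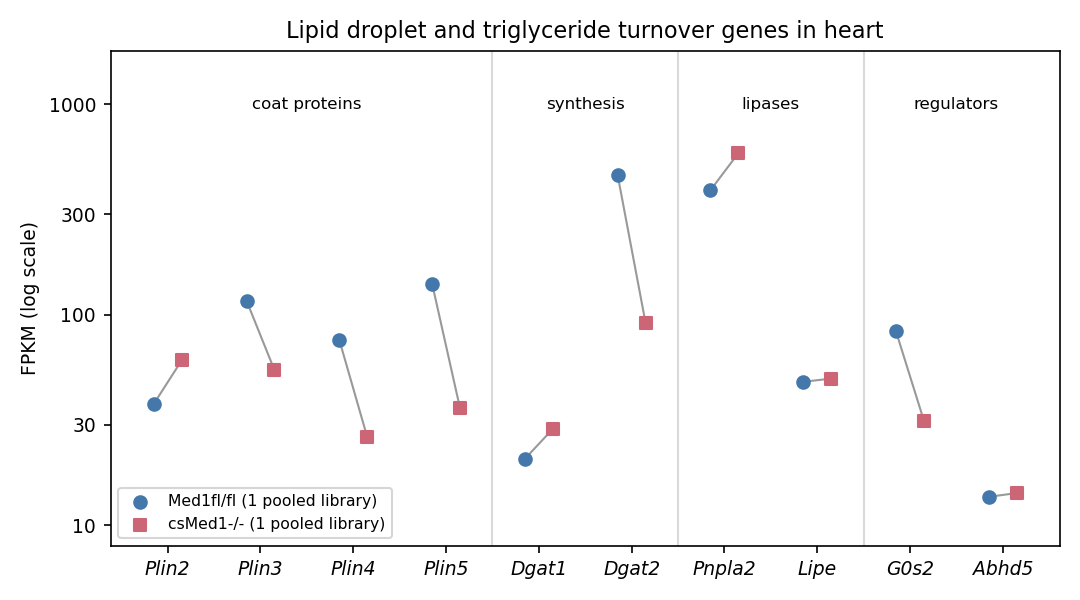
FPKM (log axis) of the 10 genes in the Med1fl/fl library (circles) and the csMed1-/- library (squares), each 1 pool of 5 hearts, so no error bars can be drawn; a line joins the values of a gene. Dgat2 drops from 461 to 91.9 FPKM, while Pnpla2, the highest gene in csMed1-/- heart, lies at 391 and 586 FPKM.

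The perilipin coat genes were lower in csMed1-/- heart with the exception of Plin2. Plin5, the perilipin of oxidative muscle that tethers droplets to mitochondria, had 141 FPKM in Med1fl/fl and 36.1 FPKM in csMed1-/- heart, which is 3.89-fold lower. Plin4 had 75.8 and 26.3 FPKM, 2.88-fold lower. Plin3, a coat protein that also occurs free in the cytosol, had 117 and 54.7 FPKM, 2.13-fold lower. Among all tested genes, 5.39% had a lower ratio than Plin5, 9.29% a lower ratio than Plin4 and 16.2% a lower ratio than Plin3. Plin3 therefore lay close to the 2-fold limit, and among the 10 genes it alone changed its call under a library scaling that was tried. With both libraries scaled to the same summed FPKM, a setting added after seeing the data, the log2 ratio of Plin3 was -0.97.

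Plin2, the coat protein found on droplets of most cell types, was not lower. It had 37.8 FPKM in Med1fl/fl and 60.7 FPKM in csMed1-/- heart, 1.61 times the control value (log2 ratio 0.68) and within 2-fold. It was the lowest of these perilipins in Med1fl/fl heart and the highest in csMed1-/- heart, there close to Plin3 at 54.7 FPKM. The 4 genes together summed to 371 FPKM in Med1fl/fl and 178 FPKM in csMed1-/- heart. The transcribed pseudogene Gm12551 shares 5312 bases with Plin2 on the same strand and has no value of its own here. Whether its fragments were counted to Plin2 was not tested.

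The make-up of the coat transcripts within each library does not depend on library scaling. Plin2 made up 10.2% of the summed FPKM of Plin2, Plin3, Plin4 and Plin5 in Med1fl/fl heart and 34.1% in csMed1-/- heart. The share of Plin5 was 37.9% in Med1fl/fl and 20.3% in csMed1-/- heart. Plin4 held 20.4% and 14.8%. Plin3 held 31.4% and 30.8%, so its share moved little while its level was lower. In Med1fl/fl heart Plin5 was thus the main perilipin transcript, and in csMed1-/- heart Plin2 was.

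**Figure D2:**
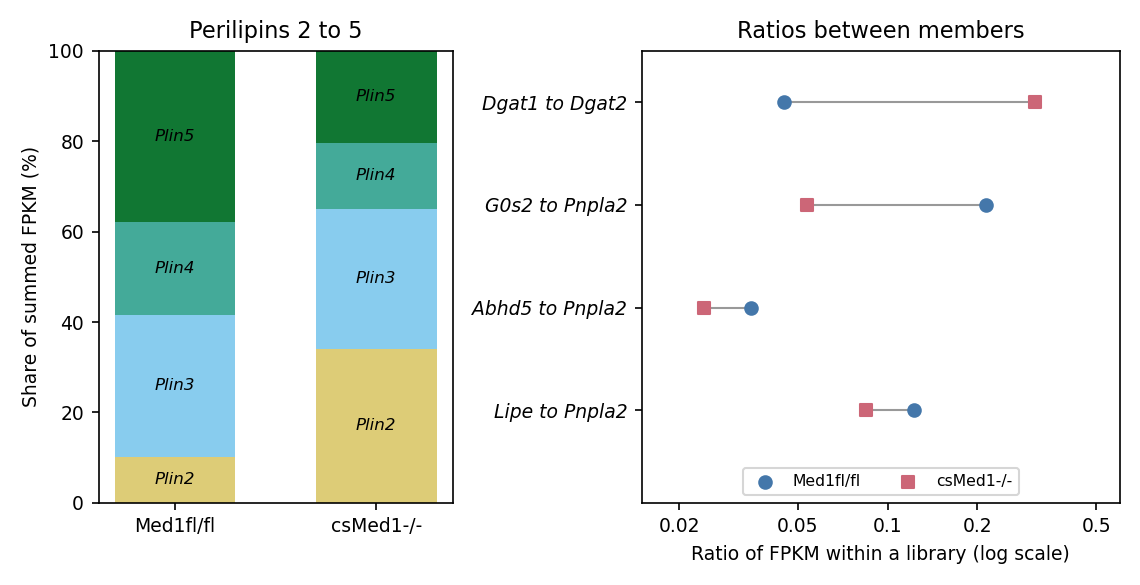
Left, stacked bars of the share (%) that each of Plin2, Plin3, Plin4 and Plin5 has in their summed FPKM in each pooled library; right, the ratio of FPKM between pairs of genes within a library (log axis), circles for Med1fl/fl and squares for csMed1-/-. The Plin2 share goes from 10.2% to 34.1%, and the Dgat1 to Dgat2 ratio from 0.0449 to 0.312.

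Plin4 and Plin5 are neighbours on the minus strand of chromosome 17. In the RefSeq annotation of GRCm38.p6, the assembly that the authors' mm10 also names, Plin4 spans 56100587 to 56109948 and Plin5 spans 56111597 to 56117606, with 1648 bases between them. Plin3 (56278962 to 56290511, minus strand) lies 161 kb further along the same chromosome, whereas Plin2 lies on chromosome 4 (86626910 to 86670217, minus strand). The windows before the starts of the 4 coat genes are shown because the genes that were lower and the one that was not can be compared in them. Each window holds the 250 bases before a RefSeq transcript start, written 5′ to 3′ on the strand of the gene, and lies at chr4:86670060-86670309, chr17:56290512-56290761, chr17:56109783-56110032 and chr17:56117549-56117798, all on the minus strand. The RefSeq table holds 2 windows for Plin5, and the one further upstream is given. The gene spans above reach beyond the starts used here, by 158 bases for Plin2, 166 for Plin4 and 58 for Plin5, so positions are counted from the transcript start of the window and not from the end of the gene span. Capitals mark matches to AGGTCA, the element that nuclear receptors of the PPAR type bind in tandem (TGACCT on the other strand), or to TATAA, the core of the TATA box.
Plin2: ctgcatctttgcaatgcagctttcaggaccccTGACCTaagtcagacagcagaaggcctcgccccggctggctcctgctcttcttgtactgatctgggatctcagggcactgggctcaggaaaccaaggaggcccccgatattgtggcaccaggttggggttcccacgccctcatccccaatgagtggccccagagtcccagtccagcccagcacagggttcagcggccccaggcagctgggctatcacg
Plin3: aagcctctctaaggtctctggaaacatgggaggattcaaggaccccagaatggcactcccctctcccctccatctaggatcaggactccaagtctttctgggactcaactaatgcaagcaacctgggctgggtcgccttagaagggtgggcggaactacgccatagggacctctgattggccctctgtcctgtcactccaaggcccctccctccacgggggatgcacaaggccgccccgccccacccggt
Plin4: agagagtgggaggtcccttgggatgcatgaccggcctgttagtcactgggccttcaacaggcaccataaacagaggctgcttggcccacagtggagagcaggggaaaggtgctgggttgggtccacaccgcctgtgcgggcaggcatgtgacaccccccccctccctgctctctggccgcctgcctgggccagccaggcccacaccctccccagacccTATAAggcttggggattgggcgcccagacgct
Plin5: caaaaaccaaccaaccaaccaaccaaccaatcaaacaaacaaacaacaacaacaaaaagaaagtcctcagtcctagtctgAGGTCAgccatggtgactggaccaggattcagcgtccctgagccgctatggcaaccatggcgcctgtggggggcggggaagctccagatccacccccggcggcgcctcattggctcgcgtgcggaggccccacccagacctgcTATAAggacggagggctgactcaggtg

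Windows were matched for 8 of the 10 genes, with 10 windows in all since Plin5 and Lipe have several starts. No window was available for Dgat1 and Dgat2, so the matches below leave both out. TATAA was found 32 bases before the transcript start used for Plin4 and 27 bases before that used for Plin5, and in none of the other windows, which is 2 of the 10. Of all 32851 windows of this length in the RefSeq table, 22.8% hold TATAA on either strand. An AGGTCA element was found 170 bases before the transcript start of Plin5, 218 bases before that of Plin2 and 69 bases before that of Abhd5, which is 3 of the 10 windows against 14.0% of all windows. The tandem AGGTCANAGGTCA, whose every match also counts as a match to AGGTCA, was in 0 of the 10 windows and in 0.0335% of all windows. CACGTG, the E box core, was in 1 of the 10, that of Lipe, against 6.02% of all. AGGTCA thus occurred before a gene that was lower (Plin5) and before genes that stayed within 2-fold (Plin2 and Abhd5). Such matches describe the letters and do not show binding.

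The genes around Plin4 and Plin5 did not share one direction. Lrg1, which encodes a secreted leucine-rich glycoprotein, starts on the far side of Plin5 with 2071 bases between the genes, and had 110.3 FPKM in Med1fl/fl and 42.4 FPKM in csMed1-/- heart (log2 ratio -1.38). Sema6b, the next gene, had 9.44 and 16.5 FPKM (0.81). Hdgfl2, named Hdgfrp2 in the files and sharing 19 bases with the end of Plin4 on the opposite strand, had 14.7 and 21.5 FPKM (0.55). Within 200 kb on either side of the Plin5 start, a window chosen after seeing the values, 14 tested genes are not perilipins. Lrg1 was the only one of them called lower, and Sh3gl1 and Zfp119b were called higher, beside 18.0% and 13.6% of all tested genes. Zfp119b had only 0.329 and 2.01 FPKM. The median log2 ratio of the 14 genes was -0.08.

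**Figure D3:**
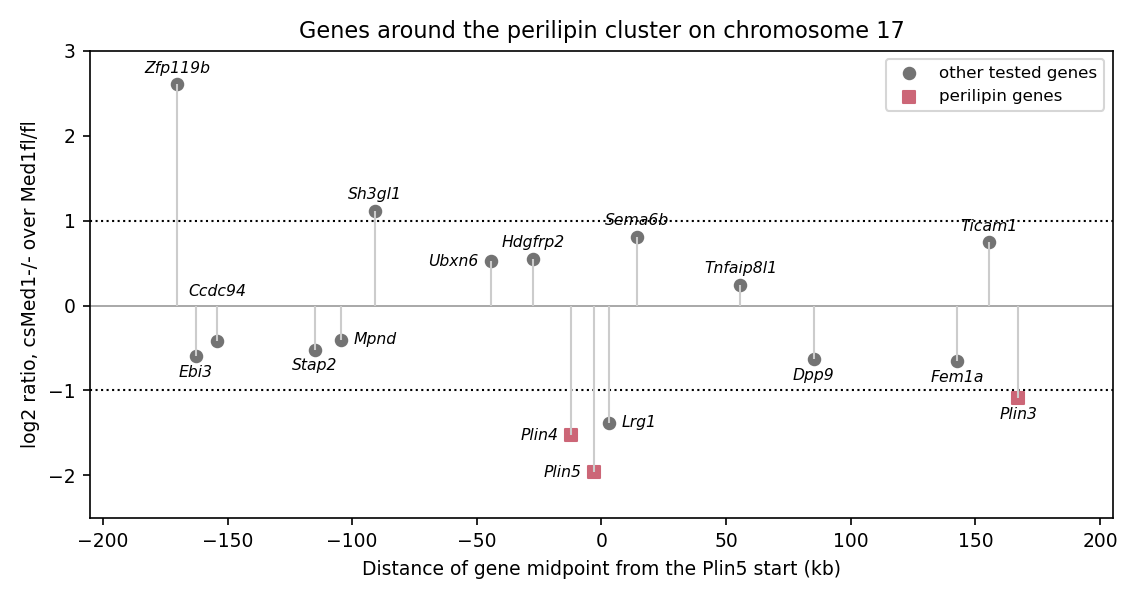
log2 ratio of csMed1-/- to Med1fl/fl FPKM for the 17 tested genes within 200 kb of the Plin5 start, against the distance (kb) of the gene midpoint from that start; squares are perilipin genes, circles other genes, and dotted lines the 2-fold limits. Plin4, Plin5 and Lrg1 stand together below the lower line, with log2 ratios of -1.53, -1.96 and -1.38, between Hdgfrp2 and Sema6b at 0.55 and 0.81.

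Of the triglyceride synthesis enzymes, Dgat2 was called lower and Dgat1 stayed within 2-fold. Dgat2 (chromosome 7, 99153663 to 99182713, minus strand) had 461 FPKM in Med1fl/fl heart, the highest value of the 10 genes and above 97.3% of tested genes. In csMed1-/- heart it had 91.9 FPKM, which is 5.01-fold lower (log2 ratio -2.33) and the largest difference of the 10. Of the tested genes, 3.61% had a lower ratio. Dgat1 (chromosome 15, 76502012 to 76512021, minus strand), whose product is unrelated in sequence to that of Dgat2 but catalyses the same step, had 20.7 FPKM in Med1fl/fl and 28.7 FPKM in csMed1-/- heart (log2 ratio 0.47). Dgat2 exceeded Dgat1 22.3-fold within the Med1fl/fl library and 3.21-fold within the csMed1-/- library. Both together summed to 481 and 121 FPKM.

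Neither lipase was called lower or higher in csMed1-/- heart. Pnpla2 (chromosome 7, 141455188 to 141460743, plus strand), the gene of ATGL, had 391 FPKM in Med1fl/fl and 586 FPKM in csMed1-/- heart, with a log2 ratio of 0.58 that is within 2-fold. It stood above 97.1% of tested genes in the first library and above 97.8% in the second. Lipe (chromosome 7, 25379527 to 25398486, minus strand), the gene of hormone-sensitive lipase, had 48.1 and 49.8 FPKM (log2 ratio 0.05). The non-coding gene 4732471J01Rik runs across Lipe on the other strand and was at 0.287 and 0.637 FPKM. The libraries were directional, but whether strand was used when fragments were assigned to genes is not given in the sources used here.

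Of the regulators of ATGL, the inhibitor was called lower and the activator was not called. G0s2 (chromosome 1, 193272160 to 193273188, minus strand), the inhibitor, had 83.5 FPKM in Med1fl/fl and 31.5 FPKM in csMed1-/- heart, which is 2.65-fold lower (log2 ratio -1.41). Abhd5 (chromosome 9, 122351616 to 122381524, plus strand), the activator, had 13.7 and 14.2 FPKM, a ratio of 1.04, and was the lowest of the 10 genes in both libraries. The ratio of G0s2 to Pnpla2 was 0.213 in Med1fl/fl and 0.0537 in csMed1-/- heart, 3.98-fold lower. The ratio of Abhd5 to Pnpla2 was 0.0349 and 0.0243, and that of Lipe to Pnpla2 was 0.123 and 0.0849. These last pairs differ by 1.44-fold and 1.45-fold between the libraries. They are ratios of transcripts, and no protein or enzyme activity was measured in the files.

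**Figure D4:**
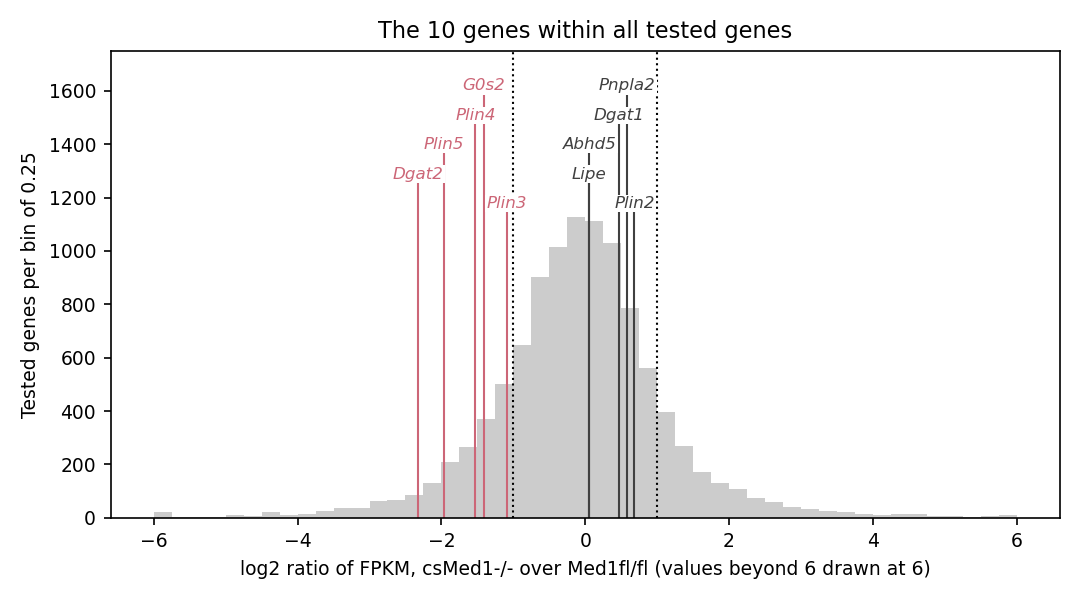
Histogram of the log2 ratio of csMed1-/- to Med1fl/fl FPKM over the 10489 tested genes in bins of 0.25, with the 10 genes as labelled vertical lines whose height has no meaning and dotted lines at 2-fold. Of the 10 lines, 5 lie left of the lower limit, from Plin3 at -1.09 to Dgat2 at -2.33, and 5 lie between Lipe at 0.05 and Plin2 at 0.68.

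In Med1fl/fl heart the order of the levels was Dgat2, Pnpla2, Plin5, Plin3, G0s2, Plin4, Lipe, Plin2, Dgat1 and Abhd5. In csMed1-/- heart it was Pnpla2, Dgat2, Plin2, Plin3, Lipe, Plin5, G0s2, Dgat1, Plin4 and Abhd5. With 1 library per genotype there is no spread with which to separate neighbours in these orders. Plin2 moved furthest, from the eighth place to the third.

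Other genes of the same pathway were read from a list of 31, of which 25 could be tested. Of these, 8 (32.0%) were called lower, 3 higher and 14 stayed within 2-fold, beside 18.0% and 13.6% of all tested genes, and their median log2 ratio was -0.32. Without the fatty acid binding protein genes Fabp3 and Fabp4, 7 of 23 were lower and the median was -0.08, close to that of all tested genes. Among 6 tested genes of droplet coating and formation, 3 were lower. Fitm1, which encodes a muscle protein of the endoplasmic reticulum needed to package triglyceride into droplets, had 594 FPKM in Med1fl/fl and 55.2 FPKM in csMed1-/- heart, 10.8-fold lower. Its relative Fitm2 had 165 and 55.3 FPKM, 2.98-fold lower, so that both stood at almost the same level in csMed1-/- heart. Cideb, of a family of droplet-associated proteins, had 2.90 and 0.812 FPKM. Higher values were found for Hilpda, which encodes a hypoxia-inducible inhibitor of ATGL, with 10.6 and 36.3 FPKM (3.43-fold higher), and for Cidea, with 37.6 and 81.4 FPKM (2.16-fold higher). Bscl2, the gene of seipin, which acts where droplets bud, had 26.9 and 32.3 FPKM. The ATGL inhibitors G0s2 and Hilpda thus differed in opposite directions, and Hilpda, at 36.3 FPKM, stood above G0s2, at 31.5 FPKM, in csMed1-/- heart alone.

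Of 13 tested genes of glycerolipid synthesis upstream of the DGAT step, 4 were lower and 1 was higher, beside 18.0% and 13.6% of all tested genes. Gpam, which encodes the mitochondrial enzyme that places the first acyl chain on glycerol 3-phosphate, had 37.9 FPKM in Med1fl/fl and 6.41 FPKM in csMed1-/- heart, 5.92-fold lower. Agpat2, an enzyme of the next step, had 71.1 and 30.4 FPKM, 2.34-fold lower. Lpin1, whose product lipin 1 makes diacylglycerol from phosphatidic acid and is also a coactivator of PPARα, had 43.3 and 5.04 FPKM, 8.59-fold lower. Mogat2, a monoacylglycerol acyltransferase that stands on several rows of the files, had summed values of only 1.74 and 0.0409 FPKM. Lpin3 had 2.25 and 6.34 FPKM. The most abundant gene of the group, Agpat3, had 190 and 142 FPKM and stayed within 2-fold. Each step from glycerol 3-phosphate to triglyceride had at least 1 gene that was lower by more than 2-fold (Gpam, Agpat2, Lpin1 and Dgat2). Each also had at least 1 that was not (Agpat6, an enzyme of the same step as Gpam, with 29.97 and 29.6 FPKM, then Agpat3, Lpin3 and Dgat1). The steps hold several genes each, and whether this exceeds what the share over all tested genes would give was not tested.

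In the lipolysis group of the wider list, 1 of 6 tested genes was called, beside 31.5% of all tested genes past 2-fold in either direction. It was Fabp3, which encodes the fatty acid binding protein of heart and was the most abundant with 7224 FPKM in Med1fl/fl and 2218 FPKM in csMed1-/- heart. Mgll, the gene of monoacylglycerol lipase, the last enzyme of lipolysis, had 105 and 114 FPKM, and Lipa, the lysosomal acid lipase, had 14.0 and 11.2 FPKM. With Pnpla2 and Lipe, the genes of all 3 enzymes of cytosolic lipolysis were therefore within 2-fold of Med1fl/fl, as were most tested genes.

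**Figure D5:**
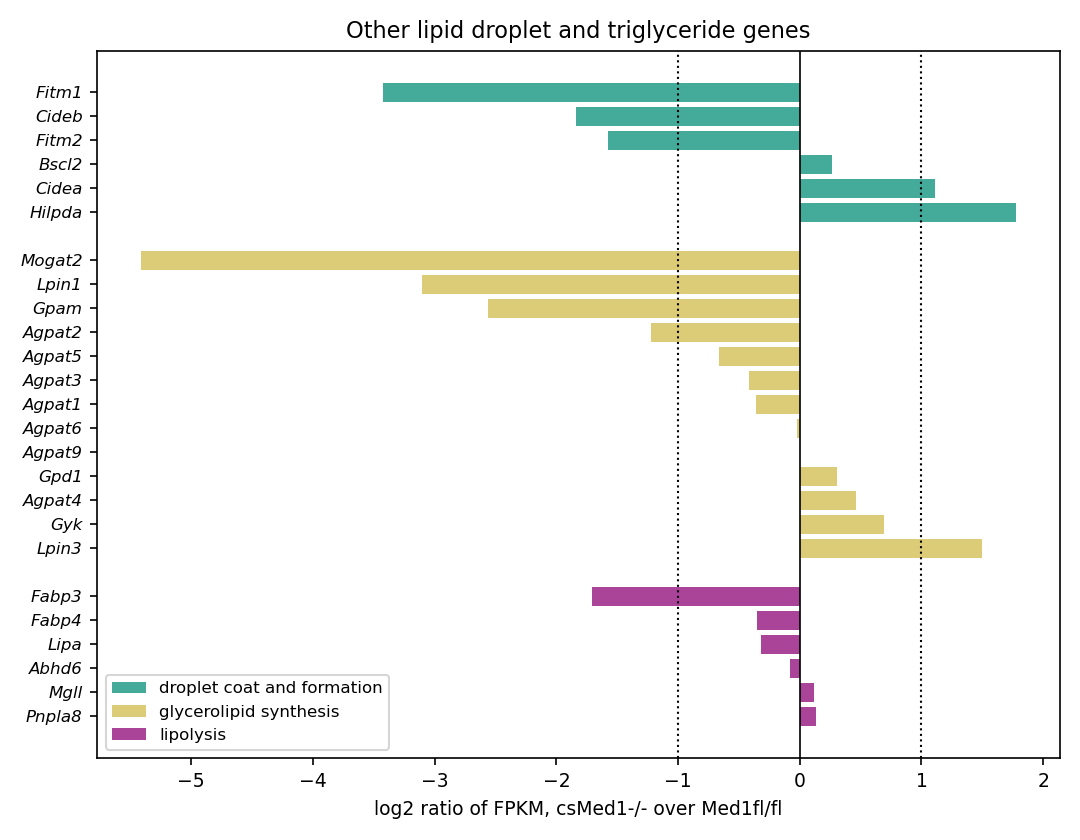
Bars give the log2 ratio of csMed1-/- to Med1fl/fl FPKM for the 25 tested genes of the wider lipid droplet and triglyceride list, in 3 groups, with dotted lines at 2-fold; 1 pooled library per genotype, so without error bars. The longest bar, Mogat2 at -5.41, rests on low values of 1.74 and 0.0409 FPKM. Fitm1, Lpin1 and Gpam, at log2 ratios of -3.43, -3.10 and -2.56, also extend far below the lower limit, while Mgll is at 0.11.

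The RNA came from whole hearts, and fewer cells of a type cannot be told apart from less RNA per cell. Of 8 cardiomyocyte markers, 6 were tested and 5 of these were called lower. The summed level of Myl2, Myl3, Tnni3, Tnnt2, Ryr2 and Pln was 51226 FPKM in Med1fl/fl and 19569 FPKM in csMed1-/- heart, or 0.382 of the control level. Actc1 was listed at 0 in the Med1fl/fl library and at 9189 FPKM in the csMed1-/- library, and since a cardiac actin gene at 0 in heart can be a failed estimate, it was left out of that sum. Myh6 was not analysed here. Of 9 adipocyte markers only Cidea, which mouse heart also expresses, was above 1 FPKM. The other 8 (Adipoq, Plin1, Cidec, Lep, Retn, Cfd, Adrb3 and Ucp1) reached at most 0.145 FPKM in either library, 7 of them were listed at 0 in Med1fl/fl and 4 in csMed1-/- heart. Whether these zeros are true or failed estimates was not tested. The 5 macrophage markers summed to 155 and 108 FPKM with none called, the 6 fibroblast markers to 356 and 969.6 FPKM with 4 called higher, and the 5 endothelial markers to 306 and 202 FPKM with 3 called lower. The fibroblast markers Pdgfra and Dcn and the endothelial markers Pecam1 and Cdh5 stayed within 2-fold. Over all tested genes, 18.0% were called lower and 13.6% higher. The part of the marker shifts in the values of the 10 genes was not tested.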

How the data were processed

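RNA from hearts of 5 Med1fl/fl and 5 csMed1-/- mice was pooled by genotype, and 1 directional 50 bp single-end library was made per pool. The authors aligned the reads to mm10 with TopHat (v2.0.8b) and deposited FPKM values of known genes from Cufflinks and cuffdiff (v2.1.1). This origin is taken from the study's methods. The submitters' notes name TopHat, cuffdiff, STAR 2.4.0h and a count-based differential expression package, with no role for each. Which library scaling was used is not stated. Each file has 23424 rows, and 412 symbols on several rows were summed. Expression was compared as csMed1-/- FPKM divided by Med1fl/fl FPKM, without a pseudocount. No fragment counts were used here, and the absolute depth is unknown. At 0.15 FPKM or less, ratios piled up at 0.719 (83 rows, against a median of 10 in windows beside it), which implies 1.39 times as many fragments in the csMed1-/- library if values were scaled to mapped fragments alone. A value of 0 in one library with 10 FPKM or more in the other was found for 17 genes at 0 in Med1fl/fl and 16 at 0 in csMed1-/- heart.

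The genes and lists were chosen with earlier results of these data known. Named genes are the 10 genes, Med1, and, of the wider list, those past 2-fold and the most abundant of each group. Sh3gl1, Zfp119b, Lrg1, Sema6b, Hdgfl2, Bscl2, Agpat6, Mgll, Lipa and 4732471J01Rik were named after their values were seen. List symbols were matched to the files directly or by an older RefSeq symbol (Gk as Gyk). Promoter windows and positions came from RefSeq (GRCm38.p6), and strands from GENCODE M21. The ratio computation was tested on simulated data. Python 3.11.15, numpy 2.4.6, pandas 2.3.3 and matplotlib 3.10.9 were used. The alternatives were pseudocounts, filters on low values, library scalings, the highest row of a symbol, and other fold limits.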

Additional observations from a re-analysis of the deposited data

How the results depend on the processing

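Of the 12 alternatives tried, those that changed a call among the 10 genes were the fold limits and scaling to the summed FPKM. At 1.5-fold 1 of the 10 was called higher (Plin2), against 0 at 2-fold, beside 23.7% of all tested genes. Pnpla2, with a ratio of 1.499, lay just under the 1.5-fold limit. At 4-fold 1 was called lower (Dgat2), against 5, beside 5.14% of all tested genes. Scaling to the summed FPKM, added after seeing the data, shifted all log2 ratios by 0.12 and took Plin3 to -0.97, inside 2-fold. Over the alternatives, the log2 ratio ran from -2.35 to -2.20 for Dgat2, from -1.98 to -1.84 for Plin5 and from 0.66 to 0.81 for Plin2. In the wider list a 4-fold limit left 4 genes lower, against 8, and 0 higher, against 3. Over all 10489 tested genes, 1886 were lower and 1423 higher. Scaling to the summed FPKM turned this balance, with 1629 lower and 1677 higher, and took the median log2 ratio of all tested genes to 0.05. Without a filter on low values 3182 (20.0%) were lower and 2504 (15.7%) higher of 15930 genes, and with at least 10 FPKM in one library 885 (16.3%) and 821 (15.1%) of 5426, so that the shares moved less than the counts. Of the 10489 genes, the counts were 3120 and 2488 at 1.5-fold, and 539 and 453 at 4-fold. The ratios between the genes within a library and the perilipin shares moved by less than 1.5-fold under each pseudocount and with the highest row of a symbol. No paired analysis was possible because each genotype is 1 pooled library, and no library could be left out for the same reason. Without fragment counts, the counting error of each value remains unknown.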

Other observations

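Of the genes of the PPAR receptors, which regulate many lipid droplet genes, only Ppara was more than 2-fold lower in the csMed1-/- library. Of all tested genes, 18.0% were. Ppara had 12.4 FPKM in Med1fl/fl and 1.66 FPKM in csMed1-/- heart, 7.46-fold lower. Ppard, with 32.7 and 27.0 FPKM, and Pparg, with 5.64 and 4.02 FPKM, stayed within 2-fold. By qPCR, the paper reports significantly lower transcripts of Ppard and Pparg too in csMed1-/- heart, and describes their decrease as moderate. In Med1fl/fl heart Ppard was the most abundant of these 3 genes, and it was so in csMed1-/- heart as well. Their part in the values of the lipid droplet genes was not tested.

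Plin1, the perilipin of fat cells, was listed at 0 in Med1fl/fl and at 0.00825 FPKM in csMed1-/- heart. Fabp4, a fatty acid binding protein of fat cells, macrophages and capillary endothelium, had 182 and 143 FPKM in the same libraries.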
